A study of Homo sapiens with 6 samples.

Results

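The growth arrest genes examined here are GADD45A and GADD45B, BTG1, BTG2 and BTG3, MDM2 and MDM4, TP53INP1, and SESN1 and SESN3. They were chosen by name, with earlier results of these data known, and make up 10 of the 26485 gene names in the deposited table. RNA-seq was performed on THP1 cells, an established human acute monocytic leukemia line, after 6 h with the steroidal lactone withaferin A (WFA) or with its vehicle DMSO. Each group held 3 libraries, one from each of 3 independent experiments, and both groups were the same unmodified line grown in the same medium. The sample labels give the WFA dose as 1 mM, whereas the study's methods give 1 μM.

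These genes share a link to the tumor suppressor p53, which in normal cells switches on many of them after DNA damage and so slows division. GADD45 proteins bind cell cycle proteins and activate stress kinases, BTG proteins recruit deadenylases that shorten mRNA tails, sestrins restrain mTORC1, and MDM2 and MDM4 hold p53 itself in check. Many of them also respond to other factors, among them the FOXO, NF-kB and ATF families, and THP1 cells are known to lack functional p53. The comparison asks which of the genes moved in cells of this background.

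Total counts were between 11006035 and 13872810 per library, and intervals and floors from counts cover counting error only. Levels are given as CPM, in which each count is divided by the library total after TMM scaling, and fold changes on the log2 scale with their standard error (SE). Of 12 monocytic AML markers, 11 were tested and their summed level was 2850 to 3400 CPM with DMSO and 2525 to 3332 CPM with WFA, whereas ELANE was at 0 in every library. Most of that sum was LYZ. Of the 11, 5 fell and 1 rose at an edgeR adjusted p under 0.05, where 24.7% of all tested genes fell and 25.8% rose. CD33, CEBPA, CSF1R and SPI1 fell, with log2 fold changes of -0.85, -0.58, -0.40 and -0.34. For SPI1 the CPM of the groups overlapped and the edgeR adjusted p was 0.0461, close to the threshold. The monocyte receptor CD14 went from 5.72 to 2.45 CPM, although its difference within experiment 2 was only -0.18 on the log2(CPM + 2) scale. CD68, a lysosomal protein gene, was the one that rose. Of 12 markers of other lineages, 7 had at most 3 counts in every library, 4 of them 0, and the summed level of the 12 was 355 to 402 CPM with DMSO and 317 to 336 CPM with WFA. Nearly all of that sum was PECAM1, which monocytes also express. COL1A1, a fibroblast marker, was at 0.453 ± 0.333 CPM with DMSO and 9.95 ± 2.27 CPM with WFA (SD, n = 3 each). Its part in the results below was not tested.

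Promoter sequences from RefSeq (GRCh38.p14), which run from 250 bases before to 50 bases after the start, were found for 8 of the 10 genes. Those of BTG1 and BTG3 are shown because these relatives moved in opposite directions, and those of MDM2 because its downstream promoter is the one known to respond to p53. They are written 5′ to 3′ on the gene's own strand, with every match to a searched motif in capitals.
BTG1, chr12:92145797-92146096, minus strand: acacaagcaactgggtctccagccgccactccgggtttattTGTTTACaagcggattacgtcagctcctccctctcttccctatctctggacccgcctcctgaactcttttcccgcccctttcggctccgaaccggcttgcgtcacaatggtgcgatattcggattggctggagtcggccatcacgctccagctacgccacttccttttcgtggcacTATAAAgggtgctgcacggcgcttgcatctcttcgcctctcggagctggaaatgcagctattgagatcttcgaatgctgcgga
BTG3, chr21:17612852-17613151, minus strand: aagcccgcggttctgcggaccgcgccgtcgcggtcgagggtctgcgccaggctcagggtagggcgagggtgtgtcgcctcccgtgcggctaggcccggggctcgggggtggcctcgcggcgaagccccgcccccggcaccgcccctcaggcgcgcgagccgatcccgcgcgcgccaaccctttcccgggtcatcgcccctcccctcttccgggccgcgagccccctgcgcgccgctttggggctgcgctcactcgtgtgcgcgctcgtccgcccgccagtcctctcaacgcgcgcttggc
MDM2 upstream start, chr12:68807922-68808221, plus strand: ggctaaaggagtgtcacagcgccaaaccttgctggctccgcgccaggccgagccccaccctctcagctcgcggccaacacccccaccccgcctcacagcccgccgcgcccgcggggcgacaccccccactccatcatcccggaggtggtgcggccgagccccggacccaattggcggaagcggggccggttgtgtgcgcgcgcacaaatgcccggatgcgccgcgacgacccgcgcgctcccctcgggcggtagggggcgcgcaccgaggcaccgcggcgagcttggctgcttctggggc
MDM2 downstream start, chr12:68808767-68809066, plus strand: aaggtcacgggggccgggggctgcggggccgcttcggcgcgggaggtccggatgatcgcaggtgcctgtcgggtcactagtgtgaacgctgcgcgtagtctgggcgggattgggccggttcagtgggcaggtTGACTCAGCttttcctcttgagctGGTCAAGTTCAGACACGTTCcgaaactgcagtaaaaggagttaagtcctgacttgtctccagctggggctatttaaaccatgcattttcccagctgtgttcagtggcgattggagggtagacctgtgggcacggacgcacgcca
The motifs were the cAMP response element TGACGTCA, the FOXO site GTAAACA, the heat shock element pair GAANNTTC, the antioxidant response element core TGACNNNGC, the CEBP-ATF response element TGATGNAA, the TATA box TATAAA and the p53 element, read as a 20-base site with at most 2 mismatches. Both strands were searched, and no printed matches overlapped. In the BTG1 window a FOXO site lay 209 to 203 bases before the start, read on the opposite strand, and a TATA box 33 to 28 bases before it. The FOXO site occurs in 3.42% and the TATA box in 11.5% of 35116 such promoter windows. None of the 7 motifs was found in the BTG3 window or at the upstream MDM2 start. The windows of BTG2, MDM4 and SESN3, not printed, also held none of them. That of GADD45B held only a TATA box. The SESN1 windows held no match besides an antioxidant response element core. The downstream MDM2 window held a p53 element with 2 mismatches, 94 to 75 bases before the start, a match found in 0.649% of all windows. It also held the antioxidant response element core, which 13.3% of windows hold. A match describes the letters only.

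WFA changed most of these genes, mainly by less than 2-fold. By edgeR's quasi-likelihood test with p-values adjusted over all 12854 tested genes, 6 of the 10 rose, 3 fell and BTG2 did not pass the threshold of 0.05. All 10 passed the filter on low counts. Across all tested genes the background was 50.5% called in either direction, 25.8% higher and 24.7% lower, so broad change was the rule in these cells. TP53INP1 alone was over 2-fold higher, 1 of 10 against a background of 8.11%, and 0 of 10 were over 2-fold lower (0 also by DESeq2) against 5.2%. At an unadjusted p-value under 0.05 the counts were likewise 6 higher and 3 lower. In 9 of the 10 genes, BTG2 being the exception, the CPM of the DMSO and WFA libraries did not overlap, against 58.1% of all tested genes. The median log2 fold change of the 10 genes was 0.39, beside 0.02 over all tested genes. In exact permutation tests (two-sided), p was 0.1 for each of those 9 genes, the smallest that 3 libraries against 3 allow, and 0.2 for BTG2.

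**Figure D1:**
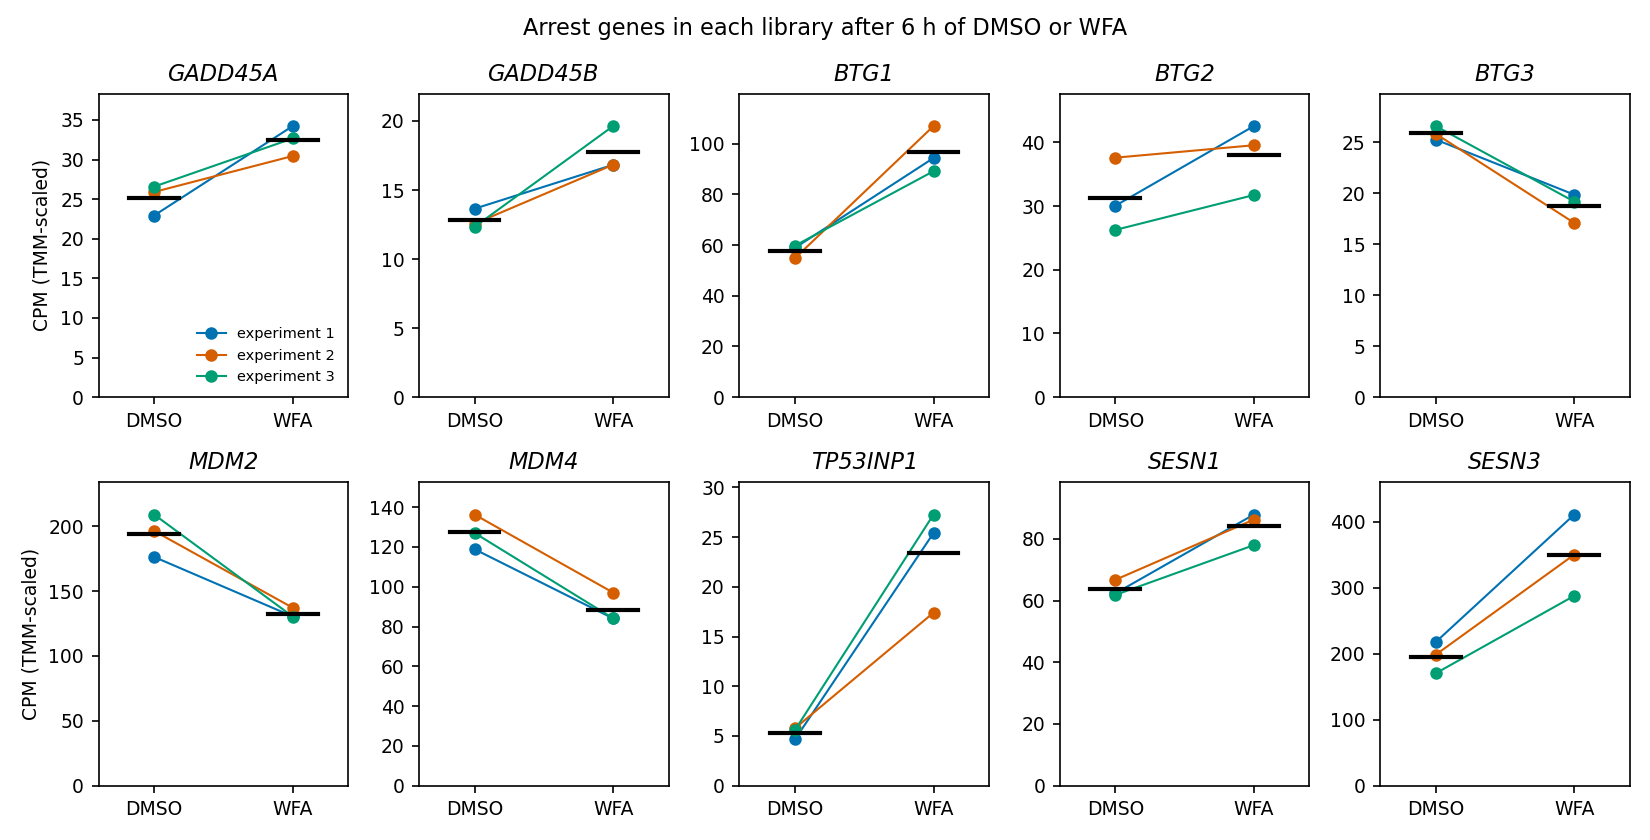
TMM-scaled CPM of the 10 arrest genes in each of the 6 libraries; points are libraries, colored lines join the DMSO and WFA library of one experiment, black bars are group means and each panel has its own axis from 0. The groups overlap for BTG2 and for no other gene, and TP53INP1 goes from a mean of 5.33 to 23.4 CPM.

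GADD45A and GADD45B encode small acidic stress sensors that bind PCNA and the CDK1 complex and activate the kinase MAP3K4. Both rose modestly. GADD45A, on chromosome 1 (67685201 to 67688334, GRCh38), stood at 22.9, 25.9 and 26.6 CPM in DMSO replicates 1, 2 and 3 and at 34.2, 30.4 and 32.7 CPM with WFA. Every WFA library was above every DMSO library, and the mean went from 25.1 ± 1.94 to 32.4 ± 1.9 CPM (SD, n = 3 each). The rise was 1.29-fold, a log2 fold change of 0.37 ± 0.11 SE (edgeR adjusted p = 0.0107). It did not pass the threshold without DMSO replicate 1, the lowest control library, where the log2 fold change was 0.30 (edgeR adjusted p = 0.0612).
GADD45B, on chromosome 19 (2476127 to 2478257), had 13.6, 12.6 and 12.3 CPM with DMSO and 16.8, 16.8 and 19.6 CPM with WFA. The highest of the 6 values was that of WFA replicate 3, and the groups again did not overlap. Its log2 fold change was 0.46 ± 0.13 SE (edgeR adjusted p = 0.0076), or 1.38-fold. The balance between the GADD45 genes was not seen to move: the log2 ratio of their counts was 0.96 ± 0.19 with DMSO and 0.86 ± 0.14 with WFA (SD, n = 3 each), and the difference of -0.094 ± 0.14 SE lay within the spread between libraries (exact permutation p = 0.5, adjusted 0.6 over 6 such ratios).
GADD45G, the remaining family gene, was barely detected, with 3, 3 and 0 counts with DMSO and 14, 12 and 14 counts with WFA. From 6 counts against 40 the ratio of WFA to DMSO was 7.32, with an exact binomial 95% interval of 3.08 to 21.1. It passed the filter on low counts only through the WFA libraries. Neither its call (edgeR adjusted p = 0.000565) nor this interval, which pools the libraries of each group, is support for a rise.

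The BTG genes did not move together. BTG1, an antiproliferative gene with high expression in resting leukocytes and a known FOXO target, lies on chromosome 12 (92140278 to 92145846). It was counted at 58.9, 54.8 and 59.7 CPM with DMSO and at 94.3, 107 and 89.1 CPM with WFA. The WFA libraries all lay well above the DMSO libraries, which differed little among themselves. BTG1 rose 1.68-fold, from 57.8 ± 2.64 to 96.8 ± 9.16 CPM (SD, n = 3 each), or by 0.74 ± 0.09 SE on the log2 scale (edgeR adjusted p = 1.02e-05).
BTG2, on chromosome 1 (203305519 to 203309602), is the BTG gene best known as a p53 target. It had 30.0, 37.6 and 26.2 CPM with DMSO and 42.6, 39.5 and 31.7 CPM with WFA. DMSO replicate 2 exceeded WFA replicate 3, so the groups overlapped, although in each experiment the WFA library was above its DMSO partner. The log2 fold change of 0.28 ± 0.14 SE did not pass the threshold (edgeR adjusted p = 0.109). With the experiment as a block, under which 59% of all tested genes were called, it did, at 0.28 (edgeR adjusted p = 0.0111), and it also passed without DMSO replicate 2 (0.42, edgeR adjusted p = 0.0234) and without WFA replicate 3 (0.39, edgeR adjusted p = 0.0338). The differences within experiments 1, 2 and 3 were 0.48, 0.07 and 0.26 on the log2(CPM + 2) scale, so the second experiment showed next to none.
BTG3 went the other way. It lies on chromosome 21 (17593653 to 17612901) and encodes an antiproliferative protein with a longer tail than BTG1 and BTG2. Its levels were 25.3, 25.8 and 26.6 CPM with DMSO and 19.8, 17.1 and 19.2 CPM with WFA. All 3 WFA libraries were below the tightly grouped DMSO libraries. The log2 fold change was -0.47 ± 0.11 SE (edgeR adjusted p = 0.00304). In GENCODE 29, 280 of the 2306 exonic bases of BTG3 lie opposite the antisense gene BTG3-AS1, and without strand such reads cannot be told apart. The same holds for 325 of the 4854 exonic bases of BTG1, 363 of 5121 of SESN1 and 93 of 10573 of SESN3, which lie opposite antisense genes. A further 503 bases of BTG1 are shared with LINC01619 on the same strand, and 439 of MDM2 with a processed pseudogene.

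Ratios of 2 relatives within a library do not depend on scaling by library size. The log2 ratio of BTG1 to BTG3 counts was 1.22, 1.08 and 1.16 with DMSO and 2.24, 2.64 and 2.21 with WFA. The group means differed by 1.21 ± 0.14 SE, with no overlap between groups (exact permutation p = 0.1, the smallest possible, adjusted 0.2 over the 6 ratios). The ratio of BTG2 to BTG3 differed by 0.75 ± 0.22 SE (exact permutation p = 0.1, adjusted 0.2) and also did not overlap. That of BTG1 to BTG2 differed by 0.46 ± 0.22 SE, with overlapping groups (exact permutation p = 0.2, adjusted 0.3). At 3 libraries a group this test cannot go below 0.1.

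**Figure D2:**
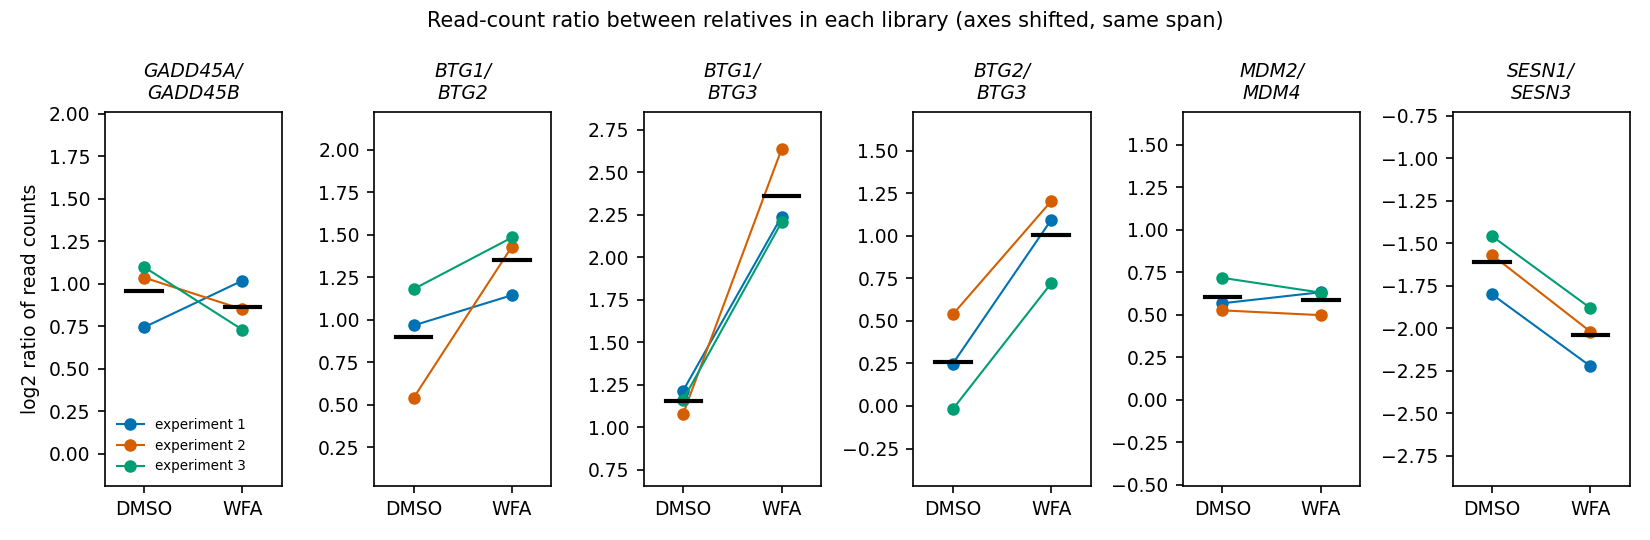
Log2 ratio of the read counts of 2 relatives in each library, with experiments joined by colored lines and group means as black bars; the axes are shifted but span the same range. BTG1/BTG3, BTG2/BTG3 and SESN1/SESN3 separate the groups, while MDM2/MDM4 has means of 0.60 with DMSO and 0.59 with WFA.

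The TOB genes, which belong to the same antiproliferative family, both rose. TOB1 had 29.6, 33.3 and 28.8 CPM with DMSO and 50.1, 45.3 and 42.7 CPM with WFA, a log2 fold change of 0.59 ± 0.10 SE (edgeR adjusted p = 0.000265). TOB2 had a smaller rise of 0.25 ± 0.09 SE (edgeR adjusted p = 0.036). Its differences within experiments 1, 2 and 3 were 0.04, 0.30 and 0.38 on the log2(CPM + 2) scale, so the first experiment showed next to none. BTG4, an oocyte gene, never exceeded 3 counts and did not enter the test. Thus BTG3 was the only one of the 5 tested BTG and TOB genes with a lower level in WFA.
Of 17 genes for deadenylase subunits and other BTG partners, 16 were tested, and their transcripts fell in 9 and rose in 1, with a median log2 fold change of -0.27, where 24.7% of all tested genes fell and 25.8% rose. CNOT7, the deadenylase that BTG proteins bind directly, went from 309 to 211 CPM (log2 fold change -0.55 ± 0.08 SE, edgeR adjusted p = 5.28e-05). CNOT10, another subunit of the CCR4-NOT complex, fell by 0.57 (edgeR adjusted p = 0.000106). The deadenylase CNOT6L was the one that rose, by 0.49 (edgeR adjusted p = 0.000328).

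MDM2 and MDM4, the paired inhibitors of p53, fell by nearly equal amounts. MDM2, on chromosome 12 (68808172 to 68850686), is the ubiquitin ligase that marks p53 for degradation, and its downstream promoter printed above is known to be induced by p53. It had 176, 196 and 209 CPM with DMSO and 130, 137 and 130 CPM with WFA. The lowest DMSO library remained above the highest WFA library. The log2 fold change of MDM2 was -0.55 ± 0.09 SE (edgeR adjusted p = 0.00011). Counts per gene do not tell the transcripts of its promoters apart. Of its 13284 exonic bases in GENCODE 29, 785 lie opposite the antisense gene AC025423.4, which had no values here, and 133 opposite the carboxypeptidase M gene, which did not change detectably (log2 fold change of the gene CPM 0.07, SE 0.12, edgeR adjusted p = 0.674).
MDM4, on chromosome 1 (204516406 to 204558120), binds p53 without degrading it and pairs with MDM2. Its levels were 119, 136 and 127 CPM with DMSO and 84.1, 97.0 and 84.1 CPM with WFA, again without overlap. The log2 fold change was -0.53 ± 0.09 SE (edgeR adjusted p = 0.000216). The log2 ratio of MDM2 to MDM4 counts was 0.60 ± 0.10 with DMSO and 0.59 ± 0.08 with WFA (SD, n = 3 each), a difference of -0.017 ± 0.073 SE (exact permutation p = 0.9, adjusted 0.9).

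TP53INP1 had the largest change of the 10 genes. It encodes a stress-induced protein that promotes p53 phosphorylation and takes part in autophagy, and it lies on chromosome 8 (94925972 to 94949378). DMSO libraries held 4.64, 5.76 and 5.58 CPM, from 66, 73 and 67 counts. The WFA libraries held 25.4, 17.4 and 27.3 CPM, from 311, 216 and 293 counts. WFA replicate 2 was the lowest of its group yet more than any DMSO library. The rise was 4.38-fold, a log2 fold change of 2.13 ± 0.18 SE (edgeR adjusted p = 2.41e-07), which placed TP53INP1 at the 98.4th percentile of all tested genes. Its relative TP53INP2, an autophagy scaffold, rose from 5.46 ± 1.14 to 14.2 ± 0.38 CPM (SD, n = 3 each; log2 fold change 1.39 ± 0.17 SE, edgeR adjusted p = 8.5e-06).

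Sestrins sense leucine and stress and inhibit mTORC1 by binding the GATOR2 complex. SESN3, on chromosome 11 (95165513 to 95232475) and best known as a FOXO target, stood at 218, 198 and 170 CPM with DMSO and at 411, 350 and 288 CPM with WFA. Its level ranked the experiments alike in both groups, so the spread within a group (SD 0.18 and 0.26 on the log2(CPM + 2) scale) was wider than that of the differences within experiments, which were 0.91, 0.81 and 0.75 (SD 0.08). SESN3 rose 1.79-fold (log2 fold change 0.84 ± 0.12 SE, edgeR adjusted p = 5.03e-05).
SESN1, the sestrin most closely tied to p53, lies on chromosome 6 (108984309 to 109094846). It had 62.3, 66.7 and 61.8 CPM with DMSO and 87.9, 86.3 and 78.0 CPM with WFA. The groups did not overlap and the rise was smaller, 1.32-fold (log2 fold change 0.40 ± 0.09 SE, edgeR adjusted p = 0.00135). The log2 ratio of SESN1 to SESN3 counts differed by -0.43 ± 0.14 SE, from -1.61 ± 0.17 to -2.04 ± 0.17 (SD, n = 3 each), without overlap (exact permutation p = 0.1, adjusted 0.2).
SESN2, the sestrin induced by ATF4 and by NRF2, was not among the 10 genes. It had 10.6, 9.79 and 11.1 CPM with DMSO and 28.3, 37.0 and 54.0 CPM with WFA, a log2 fold change of 1.92 ± 0.19 SE (edgeR adjusted p = 1.18e-06). In all, 5 of the 6 family relatives were tested, and 5 rose, GADD45G with the reservation above, and 0 fell (0 at an unadjusted p-value under 0.05 in edgeR and 0 by DESeq2, which called 4 higher). Of all tested genes, 25.8% were called higher and 24.7% lower.

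**Figure D3:**
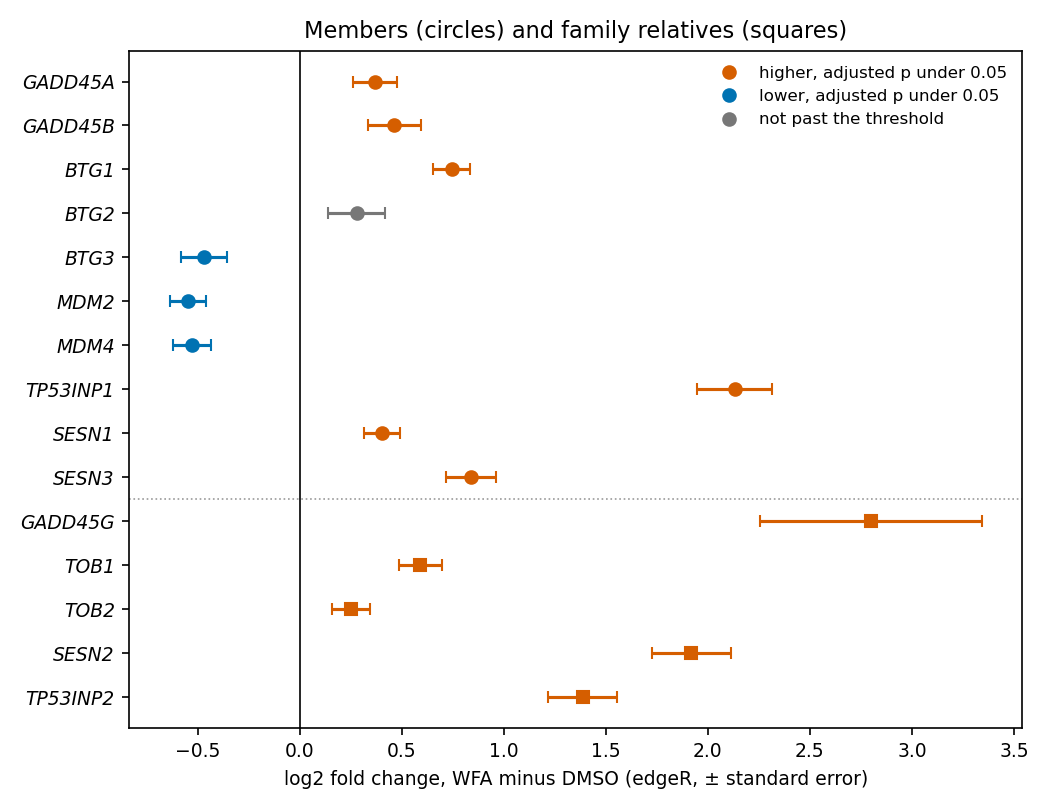
Log2 fold change (WFA minus DMSO) with its standard error from edgeR for the 10 arrest genes (circles) and the 5 tested family relatives (squares); orange is higher and blue lower at an adjusted p under 0.05, gray is not past it. BTG3, MDM2 and MDM4 lie left of 0, BTG2 is the gray point at 0.28, and TP53INP1 is at 2.13.

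The nutrient-sensing complexes that sestrins act on had no common direction. Of 21 tested genes, 7 rose (4 by DESeq2) and 4 fell, a called share near the 50.5% of all tested genes, with a median log2 fold change of 0.01 that turned to -0.07 with total counts in place of TMM. The GATOR2 subunit SEH1L, which is also a nucleoporin, fell from 125 to 54.7 CPM (log2 fold change -1.19 ± 0.11 SE, edgeR adjusted p = 6.14e-07). KICS2, a subunit of the KICSTOR scaffold listed under the older name C12orf66, fell by 0.93 (edgeR adjusted p = 0.000474). The largest rises were those of the methionine-pathway sensor BMT2, listed as C7orf60, at 1.67 ± 0.11 SE (edgeR adjusted p = 1.61e-08) and of the arginine sensor CASTOR1, listed as GATSL3, at 1.15 (edgeR adjusted p = 0.00809). CASTOR1 had 9, 8 and 11 counts with DMSO and 17, 22 and 18 counts with WFA. It passed the filter on low counts through the WFA libraries, so its call, counted among the 7, is no support for a rise.

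TP73, a transcription factor of the p53 family, fell from 15.0 to 7.53 CPM (log2 fold change -0.99 ± 0.14 SE, edgeR adjusted p = 3.53e-05). Among 20 tested genes of the p53 family and its regulators, 8 fell and 2 rose, with a median of -0.22, and the share called was near the 50.5% of all tested genes. USP10, a deubiquitinase of p53, fell by 0.91 (edgeR adjusted p = 5.26e-07). The acetyltransferases CREBBP and EP300, coactivators of p53 and many other factors, were those that rose, by 0.49 and 0.45.

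Other known p53 target genes split in both directions. Of 28 such genes, 26 were tested, of which 10 rose, 6 fell and 10 did not pass, where 50.5% of all tested genes were called. The median log2 fold change was 0.12 with TMM and 0.04 with total counts, which move the median of all tested genes from 0.02 to -0.06. CDKN1A, the p21 inhibitor of cyclin-dependent kinases, had 15.4, 20.8 and 24.2 CPM with DMSO and 65.4, 68.1 and 108 CPM with WFA. All WFA libraries exceeded all DMSO libraries, and the log2 fold change was 2.01 ± 0.19 SE (edgeR adjusted p = 5.99e-07). The stress cytokine GDF15 had 8, 4 and 7 counts with DMSO and 22, 25 and 37 counts with WFA. It too passed the filter only through the WFA libraries, so its call, counted among the 10 that rose, is no support for a rise. AEN, a nuclease that p53 induces in apoptosis, fell from 36.1 ± 1.15 to 9.78 ± 1.58 CPM (SD, n = 3 each; log2 fold change -1.88 ± 0.13 SE, edgeR adjusted p = 2.94e-08). TRIAP1, a p53-induced survival factor, fell by 0.80 (edgeR adjusted p = 1.41e-05).

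The FOXO list, which covers another set of factors that act on BTG1 and SESN3, had 7 genes higher and 3 lower of 17 tested, where 50.5% of all tested genes were called, and the median log2 fold change was 0.20 (0.12 with total counts). FOXO4 itself went from 4.39 to 19.7 CPM (log2 fold change 2.16 ± 0.16 SE, edgeR adjusted p = 4.33e-08), and KLHL24, a FOXO-responsive gene, rose by 1.97 (edgeR adjusted p = 2.89e-09). FOXO1 rose from 5.35 to 12.2 CPM (log2 fold change 1.18 ± 0.18 SE, edgeR adjusted p = 6.28e-05). FOXO3, with means of 74.9 CPM with DMSO and 82.8 CPM with WFA, did not pass the threshold (0.15 ± 0.10 SE, edgeR adjusted p = 0.251). TXNIP, an inhibitor of thioredoxin, had a log2 fold change of -1.33 and CITED2, a CREBBP-binding regulator, of -0.83 (edgeR adjusted p = 6.44e-08 and 3.67e-05).
Among 12 genes for partners of GADD45 proteins and their kinases, 6 fell and 1 rose, with a median of -0.22, and the share called was near the 50.5% of all tested genes. The mitotic cyclin CCNB1 went from 190 to 110 CPM (log2 fold change -0.78 ± 0.13 SE, edgeR adjusted p = 0.000182), and the p38 activator MAP2K6 fell by 1.31 from 3.41 CPM (edgeR adjusted p = 0.000752). MAP2K4, which activates JNK, rose by 0.35 (edgeR adjusted p = 0.0205). In bulk RNA, a smaller share of cells in a cycle phase and less RNA per cell cannot be told apart.

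**Figure D4:**
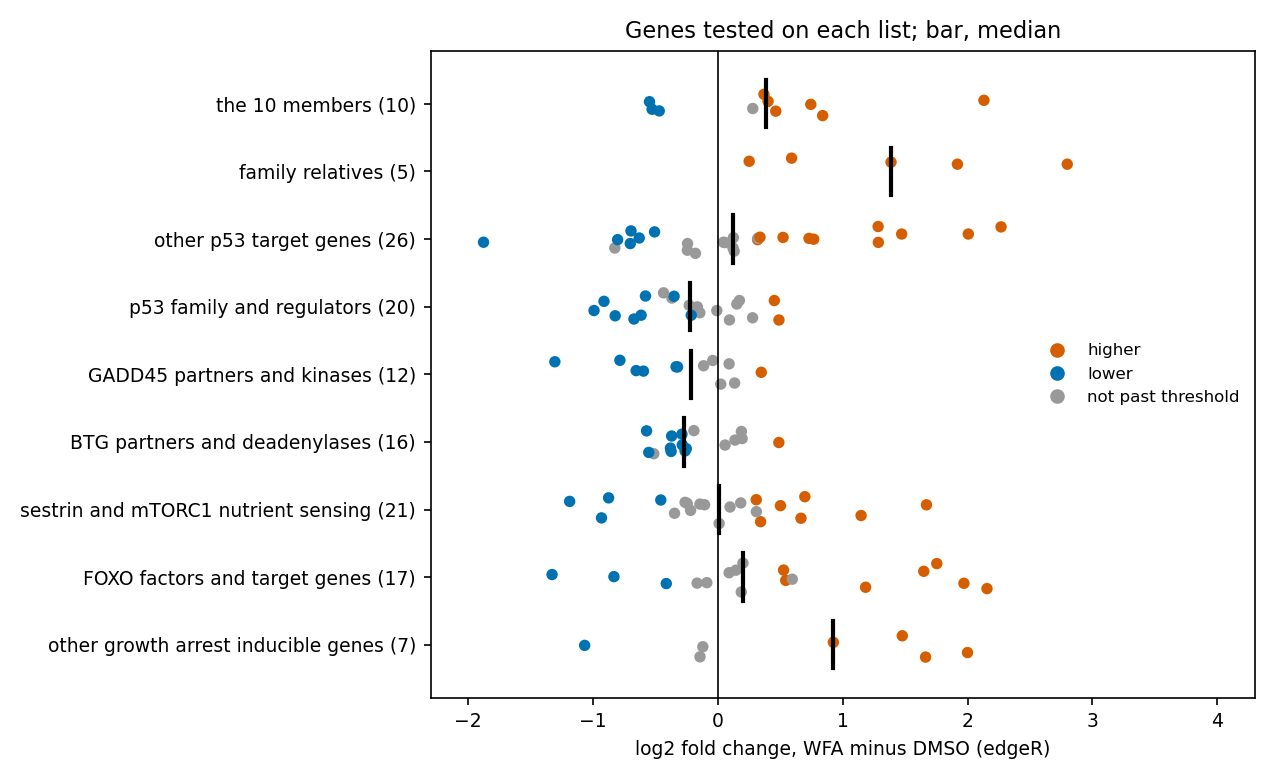
Log2 fold change (WFA minus DMSO, edgeR) of every tested gene on each list other than the marker lists, with the number tested in parentheses. Points are genes, orange higher and blue lower at an adjusted p under 0.05, gray not past it, and black bars are medians. The median is 0.39 for the 10 arrest genes, 1.39 for their relatives, 0.12 for other p53 targets and -0.27 for BTG partners. The relatives include GADD45G, which passed the filter on low counts only through the WFA libraries.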

How the data were processed

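RNA-seq libraries (TruSeq RNA v2, from total RNA) of 6 THP1 samples were compared. Counts of reads for each gene symbol, not normalized, were deposited. Per the submitters' processing notes, bcl2fastq 2.19, Trimmomatic, Bowtie2, Picard, featureCounts and DESeq2 were used with build hg38, while the annotation and strand setting are not given in the sources used here. The authors' 6 scaled columns and their own group means, fold changes and p-values were not used. From the counts, edgeR 4.0.16 (R 4.3.3) was run with TMM scaling, filterByExpr (minimum count 10) and a quasi-likelihood test on group alone, and p-values were adjusted by Benjamini-Hochberg over 12854 tested genes (threshold 0.05). Log2 ratios of counts used a prior count of 2. Sample labels pair the libraries, since same-numbered DMSO and WFA libraries carry the same experiment code, and their deviations from the group means correlated at 0.22, 0.33 and 0.25 across genes. Libraries of one group differed beyond sampling noise (chi-square per gene 5.98 to 11.1). DESeq2 1.42.0, the block, other scalings and filters, a robust fit and leaving out each library were the alternatives. The 10 genes and the lists were chosen with earlier results of these data known. Named were the 10 genes, their relatives, CDKN1A, the 2 largest called rises and falls of each list other than the marker lists, and the 3 genes closest in pattern to the most changed gene of each of 3 families. COL1A1, ELANE, PECAM1, LYZ, CD14, CD33, CEBPA, CSF1R, SPI1, CD68, FOXO1, FOXO3 and the gene CPM were named after their values were seen. Positions are from RefSeq on GRCh38.p14, and overlaps from GENCODE 29. The motifs were chosen with the expression results known. Some genes of the lists are not reported here by name.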

Additional observations from a re-analysis of the deposited data

How the results depend on the processing

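The 3 lower genes stayed at 3 under all 14 alternatives, and the count of higher genes lay between 5 and 7. Among the log2 fold changes of the 10 genes, 136 of 140 alternative values kept their direction and their side of the threshold, 0 reversed, and the other 4 concern GADD45A and BTG2 as given above. BTG2 was the call that the replicate block added, and 7 higher and 3 lower genes were then counted. The block changed no other call among the 10 genes. It left 2 residual degrees of freedom in place of 4, but its prior degrees of freedom were infinite, against 10.8 without it. Its p-values thus rest on variability pooled over genes and are no stricter test. The SE of BTG2 was 0.10 with the block and 0.14 without it. In the paired form of the ratio test, the replicate block gave a mean difference of 1.21 for BTG1/BTG3 and -0.43 for SESN1/SESN3, where an exact sign-flip test of 3 pairs cannot go below p = 0.25. The MDM2/MDM4 ratio difference ranged from -0.056 to 0.040 with one library left out, so its sign was not fixed. DESeq2 called 4 of the nutrient-sensing genes higher where edgeR called 7. Of 92 called list genes, 0 changed sign under 3 other scalings and 2 to 6 lost their call. Depth limits GADD45G, BTG4 and CASTOR1, and the causes of these shifts were not tested.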

Other observations

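Of 8 other genes named for growth arrest or DNA damage, 7 were tested, of which 4 rose, 1 fell and 2 did not pass, where 50.5% of all tested genes were called. The median log2 fold change was 0.93. PPP1R15A, also known as GADD34, rose from 36.4 to 146 CPM (edgeR adjusted p = 7.12e-07), and DDIT3, which encodes CHOP, rose from 30.5 to 96.7 CPM (1.66 ± 0.17 SE, edgeR adjusted p = 1.07e-06). The growth arrest specific gene GAS7 went from 78.9 to 37.7 CPM, a log2 fold change of -1.07 ± 0.12 SE (edgeR adjusted p = 3.53e-06).

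Genes with the closest pattern were sought among 11706 other genes by the root mean square difference of 6 log2 CPM values, each centered on the DMSO mean. Closest to TP53INP1 were TSC22D3, a glucocorticoid- and FOXO-responsive gene, at 0.147, MSC-AS1 at 0.148 and TRAM2 at 0.151. Their own log2 fold changes were 2.10, 2.04 and 2.17. Closest to BTG1 were BISPR at 0.0518, FAM160B1 at 0.0530 and ACSL1, an acyl-CoA synthetase, at 0.0600. Closest to GADD45B were PLBD2 at 0.0218, OSBPL2 at 0.0219 and EIF1AD at 0.0323. These values rest on 6 libraries in 2 groups and describe likeness only.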
